A study of Mus musculus with 12 samples.

Results

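The 10 genes described here encode the subunits of the transcription factor NF-kappaB and the inhibitor-of-kappaB (IkB) proteins that hold it back or steer it. They were chosen by symbol, with earlier results of these data known. Each of the 10 matched 1 of the 55536 genes in the full count table. All 10 passed the filter on low counts, which left 19800 genes for testing. Expression was measured by RNA-seq in pancreatic islets, the hormone-secreting cell clusters of the pancreas, from 16-week-old mice of a mixed C57BL/6J background. Of the 12 libraries, 3 were of cytokine-treated islets and 3 of untreated islets titled PTPN2 -/- (called bKO here, as in the protocols), and 3 were of cytokine-treated islets and 3 of untreated islets titled PTPN2 +/+ (called control), whose genotype label is PTPN2 fl/fl. The cytokines were TNF-alpha, IL-1beta and IFN-gamma, given together for 24 h at doses that the sources used here do not state. Ptpn2 encodes the phosphatase TC-PTP, a brake on JAK and STAT signalling. The labels name neither a Cre line nor a deleted exon. Each genotype had 3 donor mice according to the protocols, so its 6 libraries share mice in a way that is not stated, and p-values measure the spread between libraries.

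In a resting cell NF-kappaB dimers are kept in the cytoplasm by IkB proteins. TNF-alpha and IL-1beta activate a kinase complex that marks the IkB proteins for destruction, the dimers enter the nucleus, and among the genes they switch on are those of the inhibitors themselves, which closes a feedback loop. A slower, noncanonical branch works through processing of the Nfkb2 product p100 and its partner RelB. In rodent beta cells NF-kappaB activity is known to follow IL-1beta and to drive nitric oxide and chemokine genes.

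Promoter sequences are shown first, because several of these genes are known targets of the factor they encode or restrain. RefSeq promoter windows (GRCm38.p6, 250 bases before to 50 bases after each annotated start) were at hand for Rela, Rel, Nfkb2 (at 3 starts), Nfkbia, Nfkbib, Nfkbie and Bcl3, 7 of the 10 genes and 9 windows. The 10-base kappaB consensus was searched on both strands. It was found in 7 of the 9 windows, those of Rel, Nfkb2 (all 3), Nfkbia, Nfkbie and Bcl3, whereas 8.46% of all 32851 promoter windows of this length held it. The windows of Nfkb2 are not independent, as 2 of them overlap and share a match. By gene it was found in 5 of 7, and no such share over all genes is given. The stretches below run from 120 bases before to 20 bases after the start, 5′ to 3′ on the gene's strand, with the kappaB matches in capitals:
Nfkbia, chr12:55492628-55492767, minus strand: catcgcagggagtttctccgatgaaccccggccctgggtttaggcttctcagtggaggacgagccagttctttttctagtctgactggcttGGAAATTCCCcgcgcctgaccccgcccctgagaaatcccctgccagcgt
Nfkb2 (first start), chr19:46304617-46304756, plus strand: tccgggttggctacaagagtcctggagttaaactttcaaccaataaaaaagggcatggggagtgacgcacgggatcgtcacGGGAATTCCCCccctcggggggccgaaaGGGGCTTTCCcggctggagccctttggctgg
Rel, chr11:23770950-23771089, minus strand: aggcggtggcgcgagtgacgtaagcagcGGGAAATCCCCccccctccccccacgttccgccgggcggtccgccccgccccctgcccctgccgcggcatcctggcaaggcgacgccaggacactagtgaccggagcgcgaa
Nfkbie, chr17:45555580-45555719, plus strand: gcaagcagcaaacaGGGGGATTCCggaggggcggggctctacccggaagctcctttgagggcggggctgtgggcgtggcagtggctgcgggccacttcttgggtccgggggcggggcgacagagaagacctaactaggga
Bcl3, chr7:19822736-19822875, minus strand: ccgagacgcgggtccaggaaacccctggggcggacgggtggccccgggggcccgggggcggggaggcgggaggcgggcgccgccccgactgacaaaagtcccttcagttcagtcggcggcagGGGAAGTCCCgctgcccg
The match of Nfkbia, the gene of the main feedback inhibitor IkB-alpha, lay at -29 to -20 from the start. Nfkb2 had matches at -39 to -29 from its first start, where 2 overlapped, and at -11 to -2. The window of its start 2 held matches at -236 to -227 and at 11 to 20. The only match in the window of its start 3, at -225 to -216, covers the same bases as that at 11 to 20 from start 2. Rel had a pair of overlapping matches at -92 to -82, Nfkbie had one at -106 to -97, and that of Bcl3 lay past the start, at 3 to 12. The STAT site GAS, searched as TTCNNNGAA, was found in Nfkb2 and in 8.3% of all windows. The interferon-response core, searched as GAAANNGAA, was found in Nfkbia and in 8.56% of all windows. No match overlapped a match of another motif. A match describes letters in these windows and says nothing of binding in islets.

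**Figure D1:**
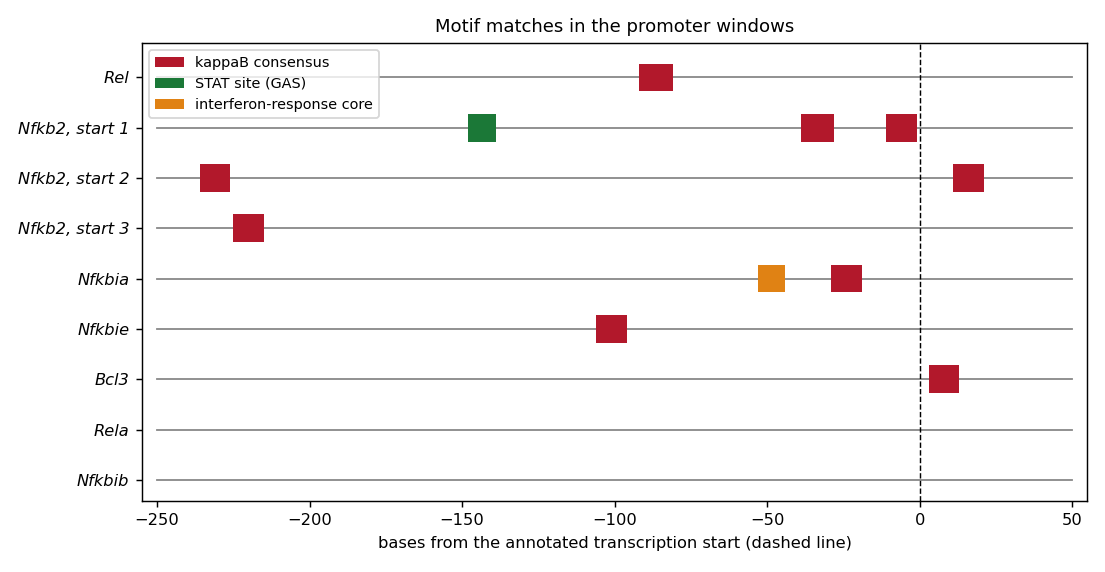
Motif matches in the 9 RefSeq promoter windows, plotted by distance in bases from the annotated start (dashed line). Boxes mark matches to the kappaB consensus, the STAT site and the interferon-response core, and the windows of Rela and Nfkbib hold none.

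Libraries held 47064061 to 57223340 counts in bKO islets with cytokines, 59411699 to 62955944 in untreated bKO islets, 52930884 to 107515565 in control islets with cytokines and 54460375 to 77582270 in untreated control islets. Treated and untreated libraries lay apart on the first principal component (85.5% of the variance), and replicate 2 of the treated bKO islets lay far from all other libraries on the second (4.25%). The islet label was met: the 10 beta cell markers summed to between 90117 and 177722 CPM (counts scaled to a common library size) in every library. Ptpn2 RNA, the check of the genotype label, was 84.2 to 111 CPM in bKO islets with cytokines and 78.3 to 90.4 CPM in control islets with cytokines. It was 33.8 to 36.7 CPM in untreated bKO islets, against 30.3 to 31.5 CPM in untreated control islets (log2 0.19, adjusted p = 0.989, edgeR quasi-likelihood test). Ptpn2 RNA was thus not lower in bKO islets in these counts, which sum all exons of the gene and may not show the loss of an exon. The genotype is used as a label throughout.

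All 10 genes were higher with cytokines in both genotypes. In bKO islets all 10 were called higher (adjusted p under 0.05 by edgeR, with p-values adjusted over all 19800 genes), where 28.8% of all genes were. In control islets all 10 were called higher, where 26.8% of all genes were. No gene's treated and untreated libraries overlapped in either genotype, and 29.8% of all genes in bKO islets and 30.5% in control islets were likewise higher without overlap. The median log2 fold change of the 10 genes was 1.84 in bKO islets, against -0.06 for all genes, and 2.08 in control islets, against -0.10 for all genes. The change was at least 2-fold for 9 of the 10 in bKO islets (13.7% of all genes) and for 10 in control islets (12% of all genes).

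**Figure D2:**
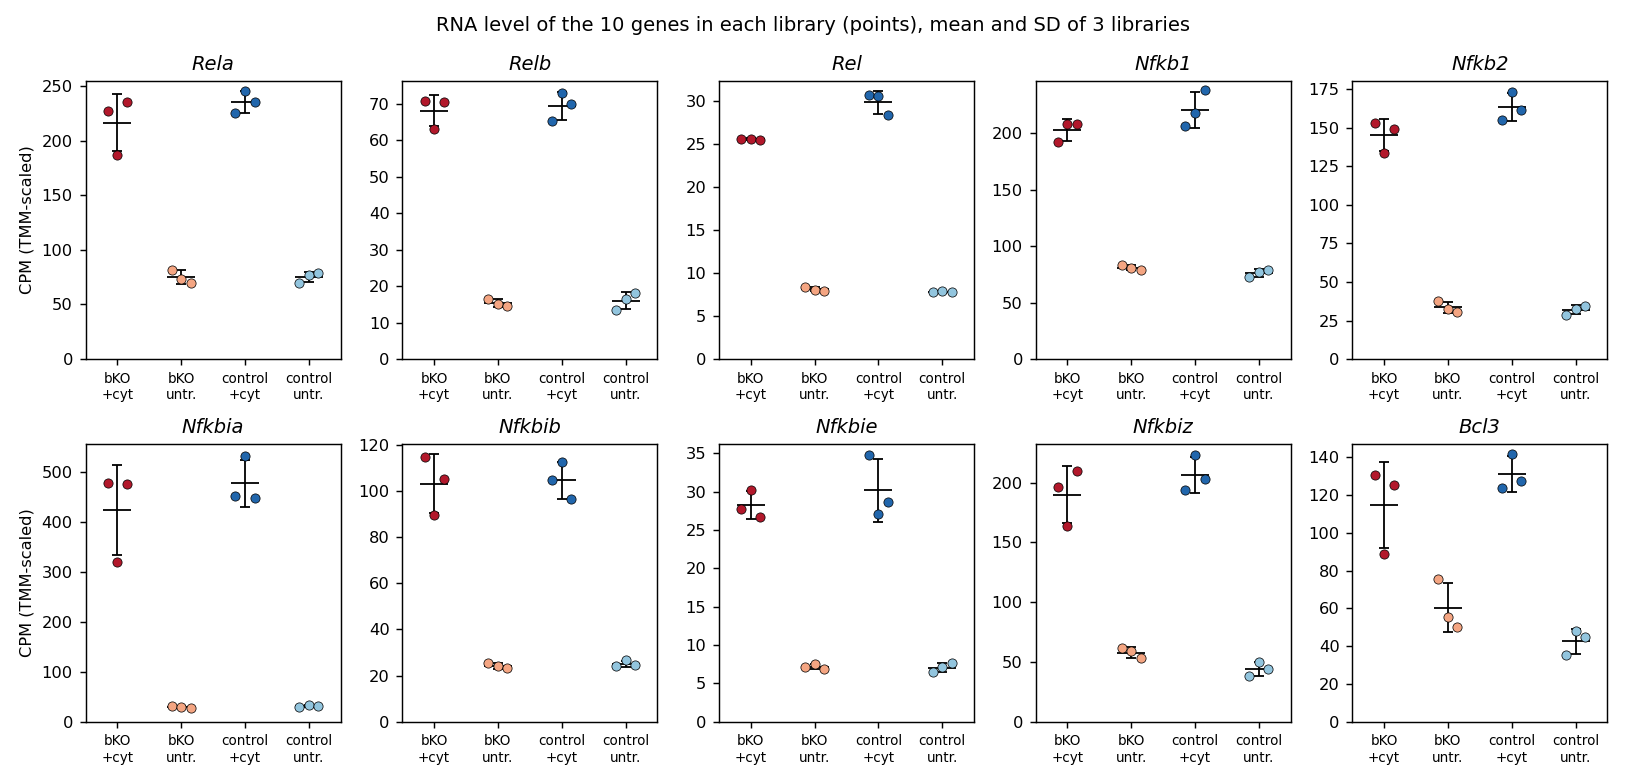
CPM of each of the 10 genes in each library (points), with the mean and SD of 3 libraries, for bKO and control islets with and without cytokines. Every treated library lies above every untreated one of its genotype, and replicate 2 of the treated bKO islets (the middle point) is the lowest of its group for Nfkbia, at 321 CPM, and for Bcl3, at 88.8 CPM.

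The inhibitor gene Nfkbia changed most. Its product IkB-alpha pulls NF-kappaB dimers off DNA and back to the cytoplasm. Nfkbia had 478, 321 and 477 CPM in the treated bKO libraries, against 30.8, 30.5 and 27.7 CPM in the untreated ones. In control islets it had 453, 532 and 449.6 CPM with cytokines, against 29.4, 33.1 and 31.5 CPM without. Treated and untreated libraries were far apart in both genotypes, and replicate 2 of the treated bKO islets lay below the other treated libraries. Nfkbia rose 14.3-fold in bKO islets (log2 3.84, SE 0.153, adjusted p = 4.09e-09) and 15.2-fold in control islets (log2 3.93, SE 0.154, adjusted p = 3.57e-09). It ranked 339 of all tested genes by log2 fold change in bKO islets and 293 in control islets. Nfkbib encodes IkB-beta, which shares targets with IkB-alpha but is known for slower turnover. Nfkbib had 115, 89.7 and 105 CPM in treated bKO libraries, against 25.7, 24.0 and 23.2 CPM in untreated ones. Control islets had 105, 113 and 96.6 CPM with cytokines, against 24.0, 26.6 and 24.7 CPM without. The groups were far apart, and the log2 changes were 2.09 (SE 0.0974) in bKO and 2.06 (SE 0.0972) in control islets. Nfkbie encodes IkB-epsilon, another inducible inhibitor. Nfkbie had 27.8, 30.3 and 26.7 CPM in treated bKO libraries, against 7.13, 7.58 and 6.87 CPM in untreated ones. With cytokines control islets had 34.8, 27.0 and 28.6 CPM, against 6.47, 7.07 and 7.65 CPM without. Its treated and untreated libraries did not overlap, with log2 changes of 1.97 (SE 0.109) in bKO and 2.09 (SE 0.109) in control islets.

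The subunits rose less than Nfkbia. Rela encodes p65, the main activating subunit. Rela had 228, 187 and 235 CPM in treated bKO libraries, against 81.9, 73.5 and 70.1 CPM in untreated ones. In control islets it had 226, 246 and 235 CPM with cytokines, against 70.1, 76.8 and 78.6 CPM without. The groups did not overlap, and Rela rose by log2 1.53 (SE 0.0961, adjusted p = 1.45e-07) in bKO and 1.65 (SE 0.0964, adjusted p = 8.66e-08) in control islets. Relb encodes the activating partner of the noncanonical branch. Relb had 70.7, 63.2 and 70.4 CPM in treated bKO libraries, against 16.5, 15.2 and 14.4 CPM in untreated ones. Control islets had 65.4, 72.9 and 70.0 CPM with cytokines, against 13.5, 16.5 and 18.1 CPM without. Its treated values overlapped between the genotypes, and it rose by log2 2.15 (SE 0.106) in bKO and 2.11 (SE 0.106) in control islets. Rel encodes c-Rel, a subunit best known from lymphocytes. Rel had 25.6, 25.6 and 25.4 CPM in treated bKO libraries, against 8.41, 8.04 and 7.92 CPM in untreated ones. With cytokines control islets had 30.6, 30.5 and 28.3 CPM, against 7.74, 7.95 and 7.74 CPM without. It varied little within each group, and its log2 changes were 1.65 (SE 0.0664) in bKO and 1.93 (SE 0.0668) in control islets.

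Nfkb1 and Nfkb2 encode the precursors p105 and p100, which inhibit NF-kappaB while whole and give the DNA-binding subunits p50 and p52 when cut. Nfkb1 had 192, 208 and 208 CPM in treated bKO libraries, against 83.1, 80.3 and 78.8 CPM in untreated ones. In control islets it had 206, 218 and 238 CPM with cytokines, against 72.5, 77.5 and 79.3 CPM without. Nfkb1 had the smallest change of the subunits, at log2 1.33 (SE 0.0705) in bKO and 1.53 (SE 0.0708) in control islets. Nfkb2 had 153, 134 and 149 CPM in treated bKO libraries, against 37.6, 32.5 and 30.8 CPM in untreated ones. Control islets had 155, 173 and 162 CPM with cytokines, against 28.7, 32.8 and 34.5 CPM without. It rose by log2 2.11 (SE 0.0982) in bKO and 2.35 (SE 0.0989) in control islets, with no overlap.

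Nfkbiz and Bcl3 encode the nuclear IkB proteins IkB-zeta and Bcl-3, which bind NF-kappaB dimers on DNA and can help transcription. Nfkbiz had 197, 164 and 209.9 CPM in treated bKO libraries, against 61.3, 59.4 and 53.0 CPM in untreated ones. With cytokines control islets had 194, 223 and 203 CPM, against 37.9, 50.3 and 44.0 CPM without. The untreated bKO libraries all lay above the untreated control libraries, and the response was log2 1.71 (SE 0.12) in bKO and 2.23 (SE 0.122) in control islets. Bcl3 had 131, 88.8 and 125 CPM in treated bKO libraries, against 75.4, 55.6 and 50.4 CPM in untreated ones. In control islets it had 124, 142 and 128 CPM with cytokines, against 35.3, 48.0 and 44.7 CPM without. It had the smallest response of the 10 in bKO islets, log2 0.93 (SE 0.177, adjusted p = 0.000772), and changed by log2 1.62 (SE 0.18, adjusted p = 1.35e-05) in control islets. Among untreated bKO libraries Bcl3 had the largest SD of the 10 genes, 13.2 CPM.

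**Figure D3:**
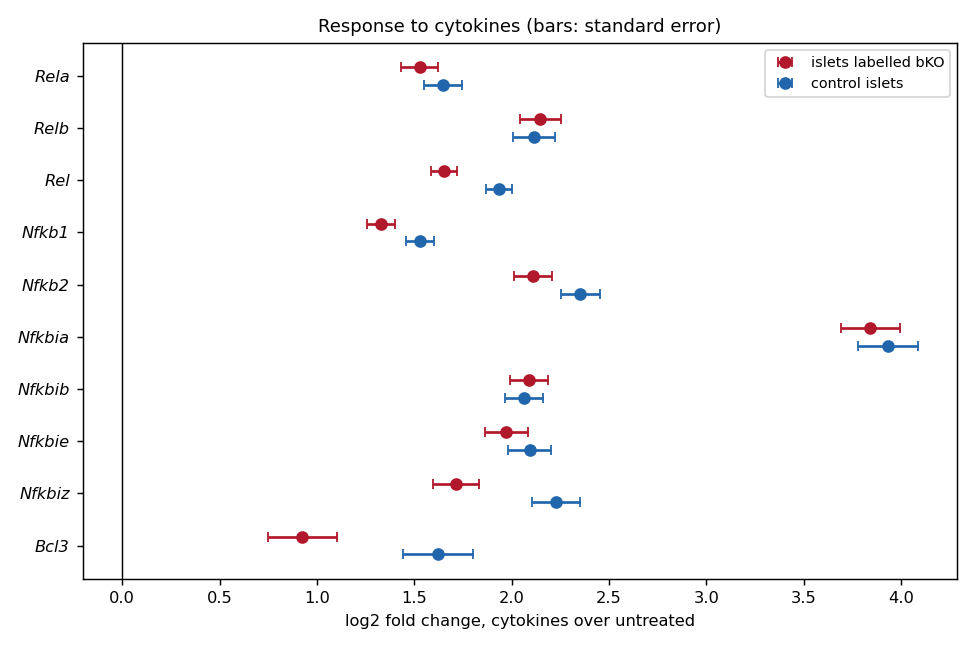
Log2 fold change (cytokines over untreated, with standard error) of each gene in bKO and control islets. Nfkbia lies near 3.9 in both genotypes, and Bcl3 in bKO islets, at 0.93, lies lowest.

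Replicate 2 of the treated bKO islets differed from the mean of the other libraries of its group, by log2 values that were not alike between genes. The difference was -0.574 for Nfkbia, -0.528 for Bcl3, -0.312 for Nfkbiz and -0.308 for Rela, against 0.003 for Rel, 0.059 for Nfkb1 and 0.151 for Nfkbie. The median absolute difference of all genes was 0.329. Without this library the bKO responses were log2 4.07 for Nfkbia, 1.14 for Bcl3, 1.87 for Nfkbiz and 1.68 for Rela, and all 10 genes were still called.

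Levels were compared between genes as CPM per kilobase of annotated exon. Under cytokines Nfkbia was first, at 264 (SD 56.2, n = 3) in bKO and 297 (SD 29.0, n = 3) in control islets, and Rela second, at 70.5 and 76.7. Without cytokines Nfkbia was well below these values, at 18.4 (SD 1.06) in bKO and 19.5 (SD 1.15) in control islets, while Rela was at 24.5 in each. The order in treated bKO islets was Nfkbia, Rela, Nfkbib, Bcl3, Nfkbiz, Nfkb2, Relb, Nfkb1, Nfkbie and Rel. Neighbours from Nfkbib through Nfkb2 overlapped in range, as did Relb and Nfkb1. In untreated bKO islets the order was Rela, Bcl3, Nfkbia, Nfkbiz, Nfkbib, Nfkb2, Nfkb1, Relb, Nfkbie and Rel, with overlap between Rela and Bcl3, between Nfkbiz and Nfkbib, and between Nfkb2 and Nfkb1. In treated control islets it was Nfkbia, Rela, Bcl3, Nfkbib, Nfkbiz, Nfkb2, Nfkb1, Relb, Nfkbie and Rel, with overlap between Bcl3 and Nfkbib and between Nfkb1 and Relb. In untreated control islets it was Rela, Nfkbia, Bcl3, Nfkbib, Nfkbiz, Nfkb2, Nfkb1, Relb, Nfkbie and Rel, with overlap between Nfkbia and Bcl3 and between Nfkb2 and Nfkb1. Rel was last in all 4 groups, at 3.42 and 1.09 in treated and untreated bKO islets and 4.00 and 1.05 in treated and untreated control islets. The order depended in part on the length used. Per kilobase of the longest coding transcript Bcl3 came before Rela in untreated bKO islets (32.7 against 27.7), before Nfkbia in untreated control islets and before Nfkbib in treated bKO islets. Nfkb1 moved furthest: its annotated exons span 12061 bases and its longest coding transcript 4117 bases, and per kilobase of that transcript it ranked 5 and 3 in treated and untreated bKO islets and 4 in both control groups.

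Set against the 5 subunits, the summed RNA of the 3 cytoplasmic inhibitors was higher with cytokines. The largest rise among them was that of Nfkbia (log2 3.84 in bKO and 3.93 in control islets). Nfkbib (2.09 and 2.06) and Nfkbie (1.97 and 2.09) rose no more than the subunits Nfkb2 (2.11 and 2.35) and Relb (2.15 and 2.11). Both inhibitors rose more than Rela, Rel and Nfkb1. Nfkb1 and Nfkb2, whose precursors inhibit NF-kappaB while whole, count here as subunits. The summed level of Nfkbia, Nfkbib and Nfkbie per kilobase, divided by that of Rela, Relb, Rel, Nfkb1 and Nfkb2, was 2.28 (SD 0.269, n = 3) in treated and 0.735 (SD 0.028, n = 3) in untreated bKO islets. It was 2.33 (SD 0.147) in treated and 0.778 (SD 0.0353) in untreated control islets. The treated libraries, from 1.97 up, all lay above the untreated ones, up to 0.802. Per kilobase of the longest coding transcript it was 1.64 in treated and 0.524 in untreated bKO islets, and 1.68 in treated and 0.557 in untreated control islets. Nfkbia made up 82.0% (SD 2.22) of the RNA of the 3 inhibitors in treated and 57.6% (SD 0.638) in untreated bKO islets, and 83.6% (SD 1.01) in treated and 58.4% (SD 0.222) in untreated control islets. Among the subunits, per kilobase of all annotated exons, the shares of Nfkb2 and Relb were larger under cytokines and those of Rela and Nfkb1 smaller. The percentages below depend on that length. Per kilobase of the longest coding transcript Nfkb1 lay above Nfkb2, at 49.3 against 37.8 in treated and 19.6 against 8.75 in untreated bKO islets. In control islets the levels by that transcript were 53.6 against 42.5 with cytokines and 18.6 against 8.32 without. Nfkb2 took 22.7% in treated and 16.8% in untreated bKO islets, and 23.4% in treated and 16.2% in untreated control islets. Rela took 50.3% in treated and 56.2% in untreated bKO islets, and 50.3% in treated and 57.0% in untreated control islets. Relb took 12.2 to 12.8% in treated and 9.02 to 9.14% in untreated bKO islets, and 11.6 to 11.8% in treated and 8.79 to 10.3% in untreated control islets. Nfkb1 took 10.97 to 13.6% in treated and 14.6 to 16.0% in untreated bKO islets, and 11.4 to 12.9% in treated and 14.5 to 15.2% in untreated control islets. Treated and untreated libraries did not overlap in any of these 4 shares, which are of RNA and not of protein. The share of Rel overlapped between treated and untreated libraries, at 2.30 to 2.70% in treated and 2.39 to 2.60% in untreated bKO islets, and 2.47 to 2.82% in treated and 2.29 to 2.62% in untreated control islets.

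Ratios of a pair of genes within a library do not depend on scaling, and 6 were tested in each genotype, 12 tests in all. The ratio of Nfkb2 to Nfkb1 was higher with cytokines by log2 0.79 in bKO and 0.83 in control islets, and that of Relb to Rela by 0.62 and 0.47. Nfkbia over Rela was higher by 2.30 in bKO and 2.28 in control islets, and Nfkbiz over Bcl3 by 0.78 and 0.60. In each of these 8 tests, and for Rel over Rela in control islets (0.28), the 3 treated libraries lay beyond the 3 untreated ones, which gives an exact two-sided permutation p of 0.1, the smallest that 3 against 3 allows, and 0.133 after adjustment. Rel over Rela in bKO islets differed by 0.13 (exact p = 0.5). Nfkbie over Nfkbib differed by -0.11 in bKO islets (exact p = 0.5) and 0.03 in control islets (exact p = 1).

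Between genotypes without cytokines none of the 10 genes was called by edgeR, where 0.0758% of all genes were, and none by DESeq2 or limma-voom. At an unadjusted p under 0.05 there were 2, Bcl3 and Nfkbiz, where 5.55% of all genes were. Their 3 bKO libraries lay above their 3 control libraries, which 8.24% of all genes did too. Nfkbiz averaged 57.9 CPM (SD 4.36) in untreated bKO islets and 44.1 CPM (SD 6.19) in untreated control islets, a log2 difference of 0.39 (SE 0.118, edgeR adjusted p = 0.52). Bcl3 averaged 60.5 CPM (SD 13.2) in untreated bKO islets and 42.6 CPM (SD 6.56) in untreated control islets, a log2 difference of 0.50 (SE 0.177, edgeR adjusted p = 0.667). That of Bcl3 was 0.32 without replicate 1 of the untreated bKO islets. The other 8 genes had log2 differences between -0.08 and 0.08. Bcl3, Nfkbiz, Rel and Nfkb2 are singled out in the genotype comparisons after their values were seen.

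Between genotypes under cytokines none of the 10 genes was called by edgeR, where 0.232% of all genes were, and 1 had an unadjusted p under 0.05, where 17.8% of all genes had. A single gene of 10 is no more than that background share. That gene, Rel, averaged 25.5 CPM (SD 0.0975) in treated bKO islets and 29.8 CPM (SD 1.31) in treated control islets, a log2 difference of -0.22 (SE 0.0641, edgeR adjusted p = 0.146). DESeq2 called Rel (adjusted p = 0.0309), but it called 705 genes in this comparison, against 46 by edgeR and 50 by limma-voom. By limma-voom Rel was not called, and over the alternatives its adjusted p ran from 0.0309 to 0.506. Every treated bKO library was below every treated control library for Rel and for Nfkb2 (log2 -0.17, SE 0.0939, adjusted p = 0.35), as for 10.8% of all genes. All 10 genes had a log2 difference below 0, between -0.02 and -0.22, with a median of -0.12, against 0.01 for all genes, of which 49.1% were below 0. Without replicate 2 of the treated bKO islets 8 of the 10 were below 0. The median of the 10 genes was then -0.046, against -0.032 for all genes. Without replicate 2 of the treated control islets 8 were below 0 (median of the 10 genes -0.108, against 0.005 for all genes). Without replicate 1 of the treated control islets 9 were below 0 (median -0.168, against 0.009).

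**Figure D4:**
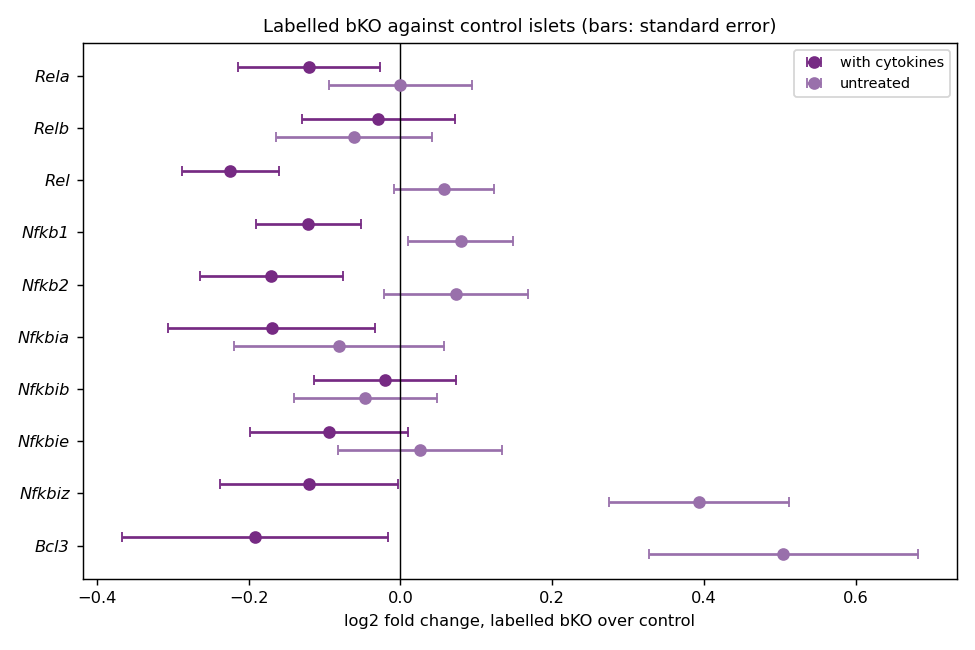
Log2 fold change of bKO over control islets (with standard error) for each gene, with cytokines and untreated. Nfkbiz and Bcl3 lie at 0.39 and 0.50 without cytokines, and with cytokines the 10 genes lie between -0.22 and -0.02, none of them called by edgeR.

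The difference between the cytokine responses, bKO minus control, was called by edgeR for none of the 10 genes and for 0% of all genes, although 2162 genes had an unadjusted p under 0.05. DESeq2 called 186 genes and limma-voom 0, and none of them was among the 10. Bcl3, Nfkbiz and Rel had an unadjusted p under 0.05 with a smaller response in bKO islets, as had 6.08% of all genes. The response of Bcl3 differed by log2 -0.70 (SE 0.249, edgeR adjusted p = 0.387), that of Nfkbiz by -0.51 (SE 0.166, edgeR adjusted p = 0.363) and that of Rel by -0.28 (SE 0.0918, edgeR adjusted p = 0.366). Without replicate 2 of the treated bKO islets these were -0.55, -0.43 and -0.30. The comparisons above share libraries: the untreated bKO values enter the response and the genotype difference alike.

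Genes upstream of NF-kappaB and its partners moved in both directions, as 35 of 56 tested rose and 7 fell in bKO islets, and 37 rose and 9 fell in control islets. Of all genes, 28.8% rose and 33.6% fell in bKO islets, and 26.8% rose and 33.9% fell in control islets. Of 17 genes in the list of receptors and adaptors 13 rose and 2 fell in bKO islets, and 13 rose and 3 fell in control islets. Those that rose include Il1rn, the gene of an antagonist of the IL-1 receptor (log2 2.66 in bKO and 1.89 in control islets). Cd40, a receptor of the TNF receptor family, rose by log2 4.12 (SE 0.164) in bKO and 4.42 (SE 0.166) in control islets, and Irak2, a kinase-like adaptor of the IL-1 receptor, by 1.93 and 1.87. The receptor of IL-1beta itself fell: Il1r1 had 109 to 166 CPM in treated bKO islets, against 590 to 652 CPM in untreated ones (log2 -2.20, SE 0.16, adjusted p = 4.38e-07). In control islets Il1r1 had 129.6 to 171 CPM with cytokines, against 616 to 787 CPM without (log2 -2.14, SE 0.16, adjusted p = 5.92e-07). The TNF receptor genes Tnfrsf1a and Tnfrsf1b, and Il1rap, of the same list as Il1r1, were among those that rose. The log2 changes were 1.42 in bKO and 1.44 in control islets for Tnfrsf1a, 1.91 and 1.61 for Tnfrsf1b, and 0.69 and 0.56 for Il1rap. Tnfrsf11a, the receptor RANK, fell by 0.47 in bKO and 0.43 in control islets on the log2 scale.

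Of 11 kinases 6 rose and 2 fell in bKO islets, and 7 rose and 2 fell in control islets. Ikbke, an IkB kinase-related enzyme, rose by log2 3.15 (SE 0.165) in bKO and 3.74 (SE 0.169) in control islets, and Map3k8, a kinase bound to p105, by 1.78 and 1.98. Those that fell were Map3k7, the kinase TAK1 that activates the IkB kinases (log2 -0.49 and -0.53), and its partner Tab1 (log2 -0.25 and -0.28). Tab2 and Tab3, of the same list as Tab1, were among those that rose. The log2 changes were 0.42 in bKO and 0.53 in control islets for Tab2, and 0.53 and 0.36 for Tab3. Of 18 genes of ubiquitin handling 12 rose and 2 fell in bKO islets, and 13 rose and 3 fell in control islets. Tnfaip3, which encodes the inhibitory enzyme A20, rose by log2 4.51 (SE 0.0917) in bKO and 4.46 (SE 0.0914) in control islets, and its partner Tnip1 by 2.80 and 2.87. Btrc, whose product recognises marked IkB proteins for destruction, fell by 0.88 in bKO and 0.64 in control islets on the log2 scale, and Rbx1, a ligase component, by 0.22 and 0.29. Fbxw11, of the same list as Btrc, rose by log2 0.85 in bKO and 0.87 in control islets. Of 10 IkB-like genes and partners 4 rose and 1 fell in each genotype. Ncoa3, a coactivator, rose by log2 0.71 in bKO and 0.93 in control islets, and Nfkbil1, an IkB-like gene, by 1.05 and 1.07. Nkiras1, a small GTPase-like protein that binds IkB proteins, fell in bKO islets (log2 -0.50, adjusted p = 0.00104) and was at -0.11 in control islets (adjusted p = 0.34). The difference between these responses had an adjusted p of 0.39.

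Known targets of NF-kappaB rose with the 10 genes, all 22 in bKO islets (median log2 3.98) and 21 of 22 in control islets (median 3.77). Of all genes 28.8% in bKO and 26.8% in control islets were called higher, with medians of -0.06 and -0.10. This list was chosen with earlier results of these data known. Icam1, an adhesion molecule for leukocytes, had 823 to 882 CPM in treated bKO islets, against 16.1 to 19.3 CPM in untreated ones (log2 5.62, SE 0.132). Control islets had 725 to 778 CPM with cytokines, against 12.6 to 17.2 CPM without (log2 5.61, SE 0.132). The target not called in control islets was Ltb, lymphotoxin beta, at log2 0.80 (adjusted p = 0.115), against 1.84 in bKO islets (adjusted p = 0.00273). The difference between its responses had an adjusted p of 0.53, and Ltb was chosen after its values were seen. Cd40, Tnfaip3, Tnip1 and Birc3 stand in this list and in an upstream one.

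**Figure D5:**
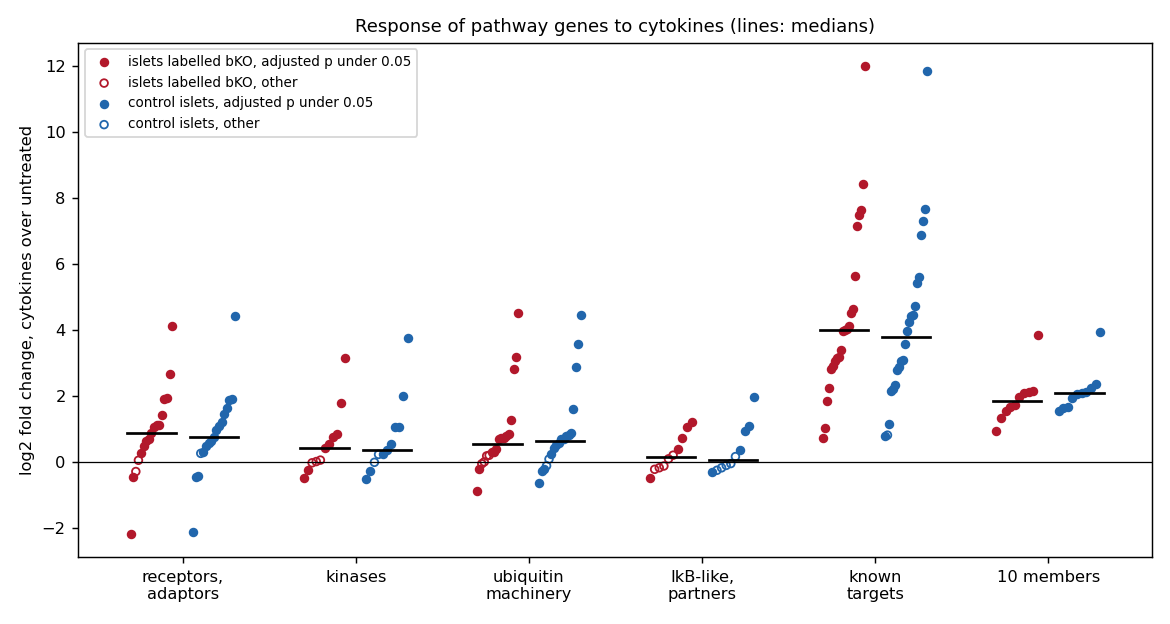
Log2 fold change (cytokines over untreated) of each tested gene of 5 pathway lists and of the 10 genes, in bKO and control islets, with filled points for adjusted p under 0.05 and lines at the medians. The known targets have medians of 3.98 and 3.77, above those of the 10 genes at 1.84 and 2.08.

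The tested macrophage, neutrophil and dendritic cell markers were mostly higher with cytokines, and at most 1 of 3 tested T or B cell markers was called higher in a genotype. Of 12 macrophage markers 10 rose and 1 fell in each genotype, and their sum was 488 to 627 CPM in treated and 171 to 238 CPM in untreated bKO islets, and 471 to 581 CPM in treated and 181 to 210.2 CPM in untreated control islets. The 6 neutrophil markers summed to 44.8 to 52.2 CPM in treated and 0.686 to 0.975 CPM in untreated bKO islets, and to 28.8 to 33.1 CPM in treated and 0.579 to 1.19 CPM in untreated control islets, with Ly6g, Mpo and Elane under 1 CPM in every library. Those 3 were not tested, and the 3 tested neutrophil markers rose in each genotype. Of 4 tested dendritic cell markers 3 rose in each genotype, and the sum was at most 11.2 CPM in any library. Of 3 tested T cell markers 1 rose and 1 fell in each genotype, with a sum of 10.2 to 17.5 CPM in treated and 5.23 to 6.12 CPM in untreated bKO islets, and 7.86 to 11.4 CPM in treated and 3.63 to 5.31 CPM in untreated control islets. Of 3 tested B cell markers 0 rose and 1 fell in bKO islets, and 1 rose and 1 fell in control islets. The B cell sum was 1.63 to 1.69 CPM in treated and 1.62 to 3.30 CPM in untreated bKO islets, and 2.09 to 2.45 CPM in treated and 3.05 to 4.06 CPM in untreated control islets. Of the defining T cell markers, Cd3d, Cd3e, Cd3g and Trac were under 1 CPM in every library. All 8 endothelial markers, all 5 alpha cell markers and 7 of 10 beta cell markers fell in both genotypes, and 3 of 4 delta cell markers fell in bKO and 4 of 4 in control islets. Of 7 tested acinar markers 3 fell in bKO and 7 in control islets. The acinar sum was 752 to 2865 CPM in treated and 1984 to 3250.2 CPM in untreated bKO islets, and 887 to 1447 CPM in treated and 4398 to 7165 CPM in untreated control islets, so the untreated genotypes did not overlap. Of 6 ductal markers 1 rose and 0 fell in bKO islets, and 1 rose and 4 fell in control islets. Of 8 stellate cell and fibroblast markers 5 rose and 1 fell in bKO islets, and 1 rose and 1 fell in control islets. Their sum was 3093 to 8180.4 CPM in treated and 2144 to 2865 CPM in untreated bKO islets. In control islets it was 1513 to 4330.3 CPM with cytokines and 1873 to 2409 CPM without. Between genotypes under cytokines 2 of 10 beta cell markers were called lower in bKO islets, as were 18 of all 19800 genes. The median of the 10 markers was log2 -0.69, against 0.01 for all genes. In bulk tissue fewer cells of a type and less RNA per cell cannot be told apart, and the part of other cell types in the rise of the 10 genes was not tested.

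The genes whose log2 CPM followed each of the 10 most closely over the 12 libraries were sought among 11187 genes of at least 5 CPM on average. For Nfkbia they were Atf3, a stress-induced transcription factor, and Tnip1 (Pearson r = 0.9994 and 0.9992). For Nfkb2 they were Birc3, an inhibitor of apoptosis (r = 0.9991), and Lyn, a tyrosine kinase (r = 0.9988). Rel was followed by Psmb9, an immunoproteasome subunit (r = 0.9988), and Adam17, a protease that sheds TNF-alpha (r = 0.9987), and Relb by the antiviral genes Oas1a (r = 0.9985) and Oasl2 (r = 0.998). Nfkb1 was followed by the interferon-induced GTPase gene Gbp9 (r = 0.9977) and by Tap1, a peptide transporter for antigen presentation (r = 0.997). Nfkbie was followed by Parp9 and by Igtp, another interferon-induced GTPase (r = 0.9978 each). Rela was followed by Ssh1, a cofilin phosphatase (r = 0.9981), and Il4i1, an amino acid oxidase (r = 0.9977), and Nfkbib by the endosomal GTPase gene Rab5c (r = 0.9989) and Atf3 (r = 0.9988). The closest to Nfkbiz were Tlr2, a receptor of bacterial lipoproteins (r = 0.9963), and Zfp36, which speeds mRNA decay (r = 0.9953). The closest to Bcl3 were the transcription factor gene Cebpd (r = 0.9911) and Il18bp, a decoy for IL-18 (r = 0.9848). These values are a description: the libraries form a treated and an untreated cluster, so that any gene with a clear cytokine response has a high r.

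The annotated exons of Rela lie at chr19:5637483-5648130, of Relb at chr7:19606217-19629438, of Rel at chr11:23736847-23770970, of Nfkb1 at chr3:135584655-135691547 and of Nfkb2 at chr19:46304320-46312385 (GRCm38). Those of Nfkbia lie at chr12:55489410-55492647, of Nfkbib at chr7:28758251-28767512, of Nfkbie at chr17:45555703-45563169, of Nfkbiz at chr16:55811375-55838899 and of Bcl3 at chr7:19808462-19822770. All 10 are protein-coding genes. Exons of other genes on the opposite strand cover 18.1% of the exon bases of Nfkb2 (Psd and AC114539.1), 16.4% of those of Nfkbib (Sirt2 and Ccer2) and 6.51% of those of Bcl3 (Gm16175). Since the strand setting of the counting is unknown here, some reads of these 3 genes may belong to their partners.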

How the data were processed

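Total RNA of islets was sequenced in 12 libraries, 3 in each of 4 groups taken from the sample titles. The authors deposited raw read counts per gene for 55536 genes, and a filtered table with the same values for 26532 genes, those whose total was at least 10. The submitters' processing notes name STAR 2.5.2a, featureCounts 1.6.2, cutadapt 1.16, FastQC 0.11.7, DESeq2 1.30.0 and the build GRCm38. Neither the annotation release nor the strand setting is stated there.

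The full table was scaled by TMM, filtered by filterByExpr and fitted in R 4.3.3 by edgeR 4.0.16 (quasi-likelihood test, one coefficient per group over all 12 libraries, Benjamini-Hochberg adjustment at 0.05 over 19800 genes). CPM are counts scaled to TMM-adjusted library size. Lengths and positions are from GENCODE M21. Levels per kilobase use all annotated exons of a gene; the length of the longest coding transcript was added as an alternative after the values by the first length had been seen. Genes are named by rule: the 10 members in every comparison, Ptpn2, per pathway list up to 2 per direction with the smallest adjusted p in bKO islets, and per member the 2 other genes of highest correlation, leaving out predicted genes, Rik clones and pseudogenes. Tab2, Tab3, Fbxw11, Tnfrsf1a, Tnfrsf1b, Il1rap and Il1rn are named outside this rule, after their values were seen. The members, lists and tests were chosen with earlier results of these data known. Ratios were tested by exact permutation. Libraries of a group differed beyond sampling noise in each of 12 pairs (smallest chi-square per degree of freedom 15). The edgeR step was tested on simulated data, drawn as independent libraries with its own dispersion estimates. Such data cannot test that noise model or the effect of shared mice. DESeq2 1.42.0 and limma 3.58.1 served as alternatives. Depth limits what can be seen: the members with the fewest counts were Rel, with 474 to 2959 in a library, and Nfkbie, with 413 to 2617.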

Additional observations from a re-analysis of the deposited data

How the results depend on the processing

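All 10 genes were called higher with cytokines in both genotypes under every alternative run: other scalings, filters, tools, dispersions and thresholds, a fit of the compared groups, a replicate block, the authors' filtered table and the omission of each library. Of 1220 alternative values of single genes over the 5 comparisons, 1196 had the same direction and side of the threshold, 1 gained a call and 23 changed sign. The gained call was Rel between genotypes under cytokines, which made DESeq2's count of called members 1. The sign changes were all of uncalled differences near 0, and their cause was not tested. Between untreated genotypes Rela, at 0.0001, was at -0.0186 with no filter, -0.0016 by limma-voom and 0 with the replicate block, and ran from -0.065 to 0.0481 with one library left out (below 0 without replicate 1 of untreated bKO, replicate 2 of treated bKO or replicate 1 of untreated control islets). With one library left out, Relb ran from -0.1691 to 0.0356 (above 0 without replicate 3 of untreated control), Nfkb2 from -0.0146 (without replicate 1 of untreated bKO) to 0.1333 and Nfkbie from -0.0336 to 0.0884 (below 0 without replicate 2 of untreated bKO or replicate 1 of untreated control). Between genotypes under cytokines Relb ran from -0.0722 to 0.0072 and Nfkbib from -0.1032 to 0.055 (both above 0 without replicate 2 of treated bKO or of treated control), and Nfkbie from -0.1683 to 0.0206 (without replicate 1 of treated control). The difference in response of Relb ran from -0.0653 to 0.1394 (below 0 without replicate 3 of untreated bKO, replicate 3 of untreated control or replicate 1 of treated control), of Nfkbib from -0.0572 to 0.1044 (below 0 without replicate 1 of treated or 3 of untreated bKO, or replicate 3 of treated or 2 of untreated control) and of Nfkbia from -0.1818 to 0.0643 (above 0 without replicate 2 of treated bKO). The ratio of Nfkbie to Nfkbib in control islets was -0.0722 with a pseudocount of 1 CPM and ran from -0.0762 to 0.1586. Per kilobase of the longest coding transcript, inhibitors over subunits moved to 1.64, 0.524, 1.68 and 0.557 in treated and untreated bKO and treated and untreated control islets, and the share of Nfkbia to 56.0% in untreated bKO and 56.9% in untreated control islets.

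Over all genes, the genotype difference without cytokines was called for 15 genes, but for 32 with no filter, 128 by DESeq2, 121 in a fit of the compared groups and 59 without replicate 2 of treated bKO islets. With cytokines it was called for 46 genes, but for 190 with no filter, 705 by DESeq2, 0 in a fit of the compared groups, 7 at a threshold of 0.01, and 4 to 444 with one library left out (444 without replicate 1 and 69 without replicate 2 of treated bKO, at most 15 without any other). The difference in response was called for 0 genes, but for 186 by DESeq2, 1 with no filter and up to 3 with one library left out (without replicate 3 of untreated bKO). With library totals alone the median log2 change of all genes under cytokines was -0.29 in bKO and -0.329 in control islets, and that of the members 1.61 and 1.85.

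Within a genotype, the deviations of treated and untreated libraries of the same number had correlations from -0.103 to 0.096. Those of libraries with different numbers ran from -0.176 to 0.204. With 3 libraries per group these values cannot tell which libraries share mice. With the replicate block 10 and 10 members were called with cytokines and 0 in the other comparisons, and the genotype difference under cytokines was called for 7 genes.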
